A study of Mus musculus with 20 samples.

Results

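The genes described here are 9 B cell surface coreceptors, inhibitory receptors and the phosphatases that act with them. They are Cd81, Cr2, Ms4a1, Cd22, Cd72, Fcgr2b, Ptpn6, Inpp5d and Ptprc, taken by symbol from a list, and all 9 were among the 23382 gene symbols of the files and among the 11386 genes tested. Their RNA was measured by sequencing in mouse B cells sorted from germinal centres, with 20 libraries that form 4 groups of 5. All mice carried 1 allele of Cgamma1Cre (Cgamma1Cre:+/-), a Cre recombinase driven from the C gamma 1 heavy chain locus, so that recombination starts in activated B cells and is not limited to the germinal centre stage. The gate of mutant centrocytes (Myd88L252P:+/-) and control centrocytes (Myd88L252P:WT) was CXCR4- and CD86+ within B220+ FAS+ GL7+ cells. For mutant centroblasts (Myd88L252P:+/-) and control centroblasts (Myd88L252P:WT) it was CXCR4+ and CD86- within the same cells. L252P is a coding change in Myd88, the adaptor that carries Toll-like receptor and interleukin-1 receptor signals. The labels gave neither age nor immunisation, and they did not say whether replicates are different animals. The tests therefore measure the spread between libraries, which may be partly technical.

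A B cell reads antigen through its antigen receptor, and coreceptors on the same membrane raise or lower the signal. The complement receptor CD21, product of Cr2, and the tetraspanin CD81 belong to the activating coreceptor complex, which lowers the amount of antigen needed when complement is attached to it. CD22, CD72 and the Fc receptor encoded by Fcgr2b carry inhibitory tyrosine motifs in their tails. Once phosphorylated, these recruit the tyrosine phosphatase SHP-1 (Ptpn6) or the inositol phosphatase SHIP-1 (Inpp5d), which end the signal. CD45 (Ptprc) is the transmembrane phosphatase that keeps Src family kinases ready to fire. In the germinal centre, centroblasts divide and mutate their receptor genes in the dark zone, and centrocytes test the receptor against antigen held on follicular dendritic cells in the light zone.

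The 250 bases before the RefSeq transcription start (GRCm38.p6) are shown for the 4 genes that rose most in centrocytes, Cr2, Ptprc, Cd72 and Cd22, and for Cd81, which moved least between the zones. Ptprc has 2 starts in the table, and the upstream one is used. The GENCODE spans of Cd22, Ptprc and Fcgr2b (the last not printed) reach farther upstream, to 30880342, 138175708 and 170976547. Their windows therefore lie inside the annotated gene and not before its outermost start. The sequences run 5′ to 3′ on the strand of the gene, and capitals mark matches to the motifs described next.
Cr2 (chr1:195176720-195176969, minus strand): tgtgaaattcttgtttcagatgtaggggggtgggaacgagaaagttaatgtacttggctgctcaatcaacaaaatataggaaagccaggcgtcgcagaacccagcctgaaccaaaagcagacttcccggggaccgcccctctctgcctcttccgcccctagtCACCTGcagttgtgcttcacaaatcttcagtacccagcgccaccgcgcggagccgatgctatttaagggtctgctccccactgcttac
Ptprc (chr1:138175306-138175555, minus strand): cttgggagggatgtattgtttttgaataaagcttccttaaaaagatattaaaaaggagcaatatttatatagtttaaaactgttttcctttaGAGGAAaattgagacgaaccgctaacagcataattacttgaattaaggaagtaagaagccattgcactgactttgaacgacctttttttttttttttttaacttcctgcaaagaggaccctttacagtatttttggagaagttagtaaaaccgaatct
Cd72 (chr4:43454627-43454876, minus strand): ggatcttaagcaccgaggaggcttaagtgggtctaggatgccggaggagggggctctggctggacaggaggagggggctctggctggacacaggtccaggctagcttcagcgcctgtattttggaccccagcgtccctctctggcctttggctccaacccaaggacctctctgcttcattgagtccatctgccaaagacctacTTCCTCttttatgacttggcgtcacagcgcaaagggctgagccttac
Cd22 (chr7:30879029-30879278, minus strand): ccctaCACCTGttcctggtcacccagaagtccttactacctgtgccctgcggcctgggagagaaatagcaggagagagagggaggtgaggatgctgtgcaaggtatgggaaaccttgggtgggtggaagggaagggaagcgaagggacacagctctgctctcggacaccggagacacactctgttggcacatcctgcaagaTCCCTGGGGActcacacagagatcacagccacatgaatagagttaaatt
Cd81 (chr7:143052500-143052749, plus strand): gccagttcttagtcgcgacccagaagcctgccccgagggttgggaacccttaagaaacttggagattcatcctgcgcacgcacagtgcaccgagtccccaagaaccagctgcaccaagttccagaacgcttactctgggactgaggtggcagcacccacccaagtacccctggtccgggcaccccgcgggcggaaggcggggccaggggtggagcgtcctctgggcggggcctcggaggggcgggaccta

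The letters of 6 motifs of B cell transcription factors were searched on both strands. They were the octamer ATGCAAAT, the PU.1 core GAGGAA, the E-box CAGGTG, the palindromic EBF motif, the composite motif of interferon regulatory and ETS factors, and the kappaB consensus. The PU.1 core and the composite motif can overlap through the shared GGAA. Cr2 held an E-box 88 to 83 bases before its start, a motif in 17.1% of 27025 promoters of this length. Cd72 held a PU.1 core 47 to 42 bases before its start and Ptprc one 158 to 153 bases before the start shown, a motif in 23.1% of promoters. Cd22 held an EBF motif 49 to 40 bases before its start, a motif in 0.788% of promoters that reads the same on both strands, and an E-box at 245 to 240. Among the promoters not printed, Fcgr2b held the composite motif at 35 to 26 (2.38% of promoters), Inpp5d a PU.1 core at 20 to 15 and Ptpn6 an E-box at 124 to 119. The octamer (1.61% of promoters) and the kappaB consensus (7.01%) had no match in these windows, and Cd81 had none of the 6. A match describes the letters in this window and says nothing about occupancy.

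Values are TPM, transcript abundances relative to the whole library, which correct for transcript length and can therefore be set side by side between genes. The files held gene-level sums, so splice forms, such as those of Ptprc that carry B220 or those of Cr2 that encode CD21 or the longer CD35, were not separated. Fcgr2b shares sequence with other Fc receptor genes, which could trade reads with it. Fold changes are log2 differences of TPM + 1 from limma over all 11386 genes, given with their standard error, and a gene is said to rise or fall only where its Benjamini-Hochberg adjusted p over all genes was under 0.05. Library composition differed between groups. The median of all genes was 0.34 in mutant centrocytes over mutant centroblasts, 0.14 in control centrocytes over control centroblasts, -0.16 in mutant over control centroblasts and 0.02 in mutant over control centrocytes, on the log2 scale. Values after median-of-ratios scaling, which brings these medians to between -0.01 and 0.02, are therefore given beside the TPM results. Mutant centroblast libraries 4 and 5 stood apart from the other 18. Genes whose annotated transcripts had a median length of up to 778 bases made up 40.2% and 44.9% of the TPM of these 2, against 32.9% to 36.7% of the others. This class rests on the annotation and not on measured RNA length, and it takes in Ptpn6 (median 421, longest transcript 2308 bases). Ribosomal protein genes made up 12.4% and 16.9%, against 7.32% to 9.95%. They held 12895 and 12719 genes above 0, against 13053 to 14092. Results that rest on these libraries are given with and without them.

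The genes of the gates followed the labels. Cxcr4 averaged 167 ± 14.8 TPM in mutant and 304 ± 17.7 TPM in control centrocytes, below 396 ± 114 TPM in mutant and 575 ± 28.3 TPM in control centroblasts (SD, n = 5 each, as for all means). Within each zone it was also lower in mutants (-0.86 ± 0.14, adjusted p = 0.00277 in centrocytes, and -0.59 ± 0.14, adjusted p = 0.027 in centroblasts). Cd86 ran the other way between the zones (251 ± 52.2 and 318 ± 11.7 TPM in mutant and control centrocytes, 107 ± 17.2 and 143 ± 30.0 TPM in mutant and control centroblasts). Fas lay between 171 and 244 TPM in every library. Myd88 was 88.8 ± 4.07 TPM in mutant and 74.4 ± 4.76 TPM in control centrocytes, and 77.2 ± 11.9 TPM in mutant and 82.5 ± 9.37 TPM in control centroblasts, which checks no label, because the allele is a coding change that gene-level TPM do not show. The sum of 6 germinal centre genes was 3549.8 to 3710.0 TPM in mutant centrocytes, 3765 to 4131 in control centrocytes, 3543 to 4119.6 in mutant centroblasts and 3631 to 4200.3 in control centroblasts.

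All 9 genes were abundant. Ms4a1, which encodes CD20, stood first in every group, with 3870.0 ± 456 TPM in mutant centrocytes and 4329 ± 208 TPM in control centrocytes. It was 2763 ± 190.4 TPM in mutant and 3043 ± 376 TPM in control centroblasts, and no other of the 9 genes overlapped with it in any group. It took 37.9% to 56.3% of the summed TPM of the 9 genes in each mutant library and 43.6% to 54.6% in each control library. Next came Ptprc and Ptpn6 in centrocytes, whose libraries overlapped. In centroblasts Ptpn6 was second and lay apart from Ptprc, the third (639.9 to 853 against 304 to 629.8 TPM in mutants, and 758 to 942 against 495 to 750.0 TPM in controls). Cd22 and Cd72 followed in centrocytes and overlapped each other in both genotypes. The last place was held by Inpp5d in centrocytes and by Cr2 in centroblasts. In mutants, Cr2 and Inpp5d overlapped in centrocytes and lay apart in centroblasts. In controls it was the reverse, with Cr2 above Inpp5d in every centrocyte library. Together the 9 genes summed to 9004 ± 428 TPM in mutant and 9249 ± 473 TPM in control centrocytes, against 5455 ± 583 TPM in mutant and 6107 ± 380.1 TPM in control centroblasts.

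**Figure D1:**
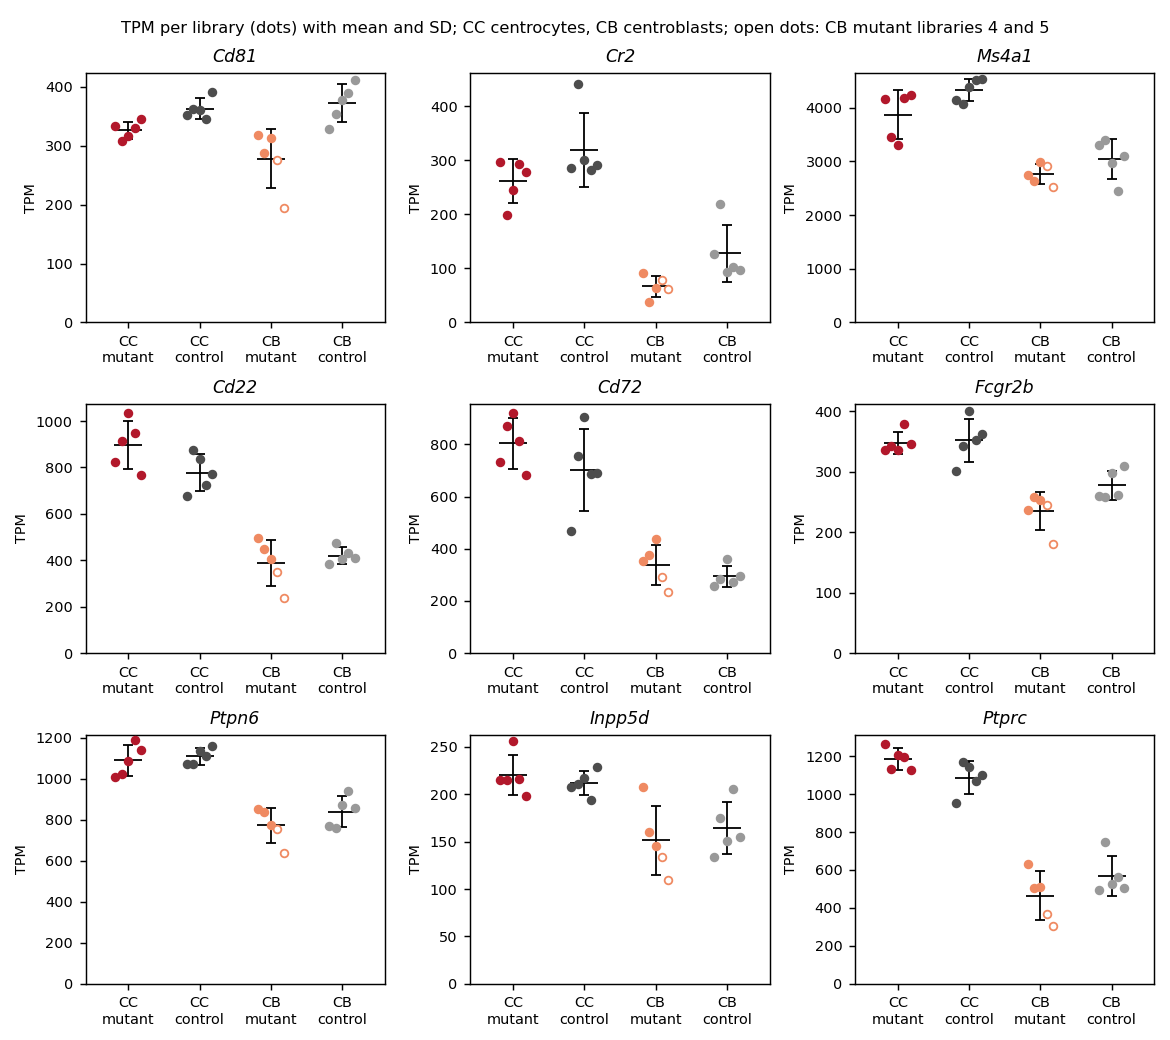
TPM of each of the 9 genes in every library (dots) with group mean and SD (black), for mutant and control centrocytes and mutant and control centroblasts, 5 libraries a group and linear axes that start at 0. Open dots are mutant centroblast libraries 4 and 5. Cr2 shows the largest fold difference between the zones, 199 to 440.5 TPM in centrocytes against 38.4 to 219 TPM in centroblasts. A single control centroblast library lies above the lowest centrocyte library, a mutant one.

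The comparison of centrocytes with centroblasts asks how the genes differ between the zones. In mutants all 9 rose in centrocytes (48.8% of all genes tested rose and 12.6% fell), and in controls 8 rose and Cd81 did not pass the test (21.2% rose and 9.48% fell). With median-of-ratios scaling 5 rose in mutants and 7 in controls, where 29.9% and 18.2% of all genes rose and 28.6% and 17.4% fell. Without mutant centroblasts 4 and 5, 8 rose in mutants, where 35.8% of all genes did. The median over the 9 genes was 0.58 in mutants and 0.52 in controls, against 0.34 and 0.14 over all genes. Cr2, Ptprc, Cd72 and Cd22 rose under both scalings in both genotypes and, on TPM, without any single library. In 7 of the 9 genes all mutant centrocytes lay above all mutant centroblasts (28.7% of genes tested did so), and in 6 of 9 in controls (17.0%). After scaling these counts were 4 (17.4%) and 6 (12.8%).

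Cr2, whose product CD21 binds complement fragments on antigen and joins them to the antigen receptor, had the largest difference of the 9 genes. It measured 297, 199, 245, 292 and 278 TPM in mutant centrocytes 1 to 5, against 90.5, 38.4, 63.5, 79.3 and 61.5 TPM in mutant centroblasts. In controls it measured 285, 440.5, 299, 282 and 290.3 TPM in centrocytes, against 126, 219, 93.8, 102 and 97.6 TPM in centroblasts. Every centrocyte library lay above every centroblast library of its genotype, and control library 2 was the highest control in both zones. The log2 fold change was 2.001 ± 0.22 in mutants (adjusted p = 2.73e-07) and 1.37 ± 0.22 in controls (adjusted p = 7.01e-05). After scaling it was 1.65 and 1.23, and without mutant centroblasts 4 and 5 the mutant value was 2.08. Cr2 lies at chromosome 1, 195136811 to 195176716, minus strand (GRCm38, as all positions here).

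Cd81 (chromosome 7, 143052739 to 143067934, plus strand), the tetraspanin that holds the coreceptor complex at the surface, moved least. It measured 333, 307, 317, 329.8 and 345 TPM in mutant centrocytes, against 318, 288, 314, 276 and 194 TPM in mutant centroblasts, and the groups overlapped. Control centrocytes measured 352, 363, 361, 345 and 392 TPM, against 328, 354, 378, 390.3 and 412 TPM in control centroblasts, and they overlapped as well. The fold change in mutants was 0.25 ± 0.10 (adjusted p = 0.0383), -0.10 after scaling (adjusted p = 0.302) and 0.09 without mutant centroblasts 4 and 5 (adjusted p = 0.292). It also missed the threshold without any one of 6 single libraries, among them mutant centroblast 5 (0.13, adjusted p = 0.119). In controls it was -0.04 ± 0.10, with an interval of -0.25 to 0.18 (95%, adjusted p = 0.814). After scaling the control means were 335 in centrocytes and 379 in centroblasts, so Cd81 lay lower in centrocytes, and the groups overlapped. That difference did not pass, but its unadjusted p was under 0.05, as for all 9 genes in this scaled comparison.

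Ms4a1 (chromosome 19, 11249675 to 11266241, minus strand) encodes CD20, a membrane protein near the antigen receptor and the target of rituximab in humans. It lay at 3297 to 4243 TPM in mutant centrocytes, above 2525 to 2983 TPM in mutant centroblasts, and at 4078 to 4525 TPM in control centrocytes, above 2446 to 3405 TPM in control centroblasts. The rise was 0.48 ± 0.09 in mutants (adjusted p = 0.000134) and 0.52 ± 0.09 in controls (adjusted p = 0.000183). After scaling it was 0.13 in mutants, which did not pass (adjusted p = 0.421), and 0.38 in controls, which did (adjusted p = 0.0318).

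Of the inhibitory receptors, Cd22 and Cd72 showed the wide separation and Fcgr2b a narrow one. Cd22 (chromosome 7, 30865402 to 30880342, minus strand), a lectin for sialic acid that recruits SHP-1, measured 821, 913, 1034, 947 and 766 TPM in mutant centrocytes, against 496, 448, 406, 349 and 237 TPM in mutant centroblasts. In controls it measured 678, 877, 835, 725 and 773 TPM in centrocytes, against 382, 475, 404, 431 and 409 TPM in centroblasts. The zones did not overlap in either genotype, and mutant centroblasts 4 and 5 were the 2 lowest of all 20 libraries. The fold change was 1.24 ± 0.14 in mutants (adjusted p = 4.31e-07) and 0.88 ± 0.14 in controls (adjusted p = 7.13e-05). After scaling it was 0.89 and 0.74, and without these 2 libraries the mutant value was 0.99.

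Cd72 (chromosome 4, 43446462 to 43454628, minus strand), a C-type lectin-like receptor of B cells that also binds SHP-1, measured 732, 872, 921, 814 and 681 TPM in mutant centrocytes, against 352, 377, 436, 293 and 234 TPM in mutant centroblasts. It measured 469, 754, 907, 686 and 690.3 TPM in control centrocytes, against 258, 284, 360.1, 272 and 297 TPM in control centroblasts. Again no centroblast library reached the centrocytes of its genotype, although control centrocyte 1 came near. The rise was 1.27 ± 0.16 in mutants (adjusted p = 1.42e-06) and 1.23 ± 0.16 in controls (adjusted p = 6.11e-06), and 0.92 and 1.09 after scaling.

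Fcgr2b (chromosome 1, 170958617 to 170976547, minus strand) encodes the inhibitory receptor for IgG immune complexes, which recruits SHIP-1. It lay at 336 to 379 TPM in mutant centrocytes, above 181 to 259 TPM in mutant centroblasts, and at 301 to 401 TPM in control centrocytes, overlapping 259 to 309 TPM in control centroblasts. The rise was 0.58 ± 0.09 in mutants (adjusted p = 3.57e-05) and 0.34 ± 0.09 in controls (adjusted p = 0.00891). After scaling it was 0.22 in mutants (adjusted p = 0.0381) and 0.20 in controls, which missed the threshold (adjusted p = 0.0861).

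Among the phosphatases, the membrane phosphatase gene Ptprc separated the zones widely, and the 2 cytoplasmic ones did so less. Ptprc (chromosome 1, 138062861 to 138175708, minus strand) measured 1267, 1135, 1207, 1194 and 1130.2 TPM in mutant centrocytes, against 629.8, 506, 512, 367 and 304 TPM in mutant centroblasts. In controls it measured 951, 1171, 1145, 1067 and 1099 TPM in centrocytes, against 495, 750.0, 524, 563 and 505 TPM in centroblasts. The groups stood apart in both genotypes, mutant centroblasts 4 and 5 were the lowest of all libraries, and control centroblast 2 was the highest centroblast. The fold change was 1.40 ± 0.14 in mutants (adjusted p = 1.35e-07) and 0.95 ± 0.14 in controls (adjusted p = 4.55e-05), 1.05 and 0.81 after scaling, and 1.12 in mutants without mutant centroblasts 4 and 5. B220, on which both gates were positive, is a splice form of the Ptprc product, so the sort selected on this gene in both zones alike.

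Ptpn6 (chromosome 6, 124720707 to 124738714, minus strand) lay at 1011 to 1189 TPM in mutant centrocytes, above 639.9 to 853 TPM in mutant centroblasts, and at 1070.1 to 1159.8 TPM in control centrocytes, above 758 to 942 TPM in control centroblasts. It rose by 0.50 in mutants (adjusted p = 2.88e-05) and 0.40 in controls (adjusted p = 0.000688), and after scaling the values were 0.15, not called (adjusted p = 0.173), and 0.27 (adjusted p = 0.0308). Inpp5d (chromosome 1, 87620312 to 87720507, plus strand), which turns the lipid product of PI3-kinase back into a form that no longer recruits signalling kinases, was the lowest of the phosphatase genes. It lay at 198 to 256 TPM in mutant centrocytes, overlapping 109.7 to 208 TPM in mutant centroblasts, and at 194 to 228 TPM in control centrocytes, overlapping 134 to 205 TPM in control centroblasts. The rise was 0.56 ± 0.13 in mutants (adjusted p = 0.000921) and 0.38 ± 0.13 in controls (adjusted p = 0.0302). Leaving out 1 library at a time took the control call away in 6 of 20 cases (adjusted p up to 0.0932, without control centroblast 1). After scaling the values were 0.21 in mutants (adjusted p = 0.055) and 0.24 in controls (adjusted p = 0.0478).

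**Figure D2:**
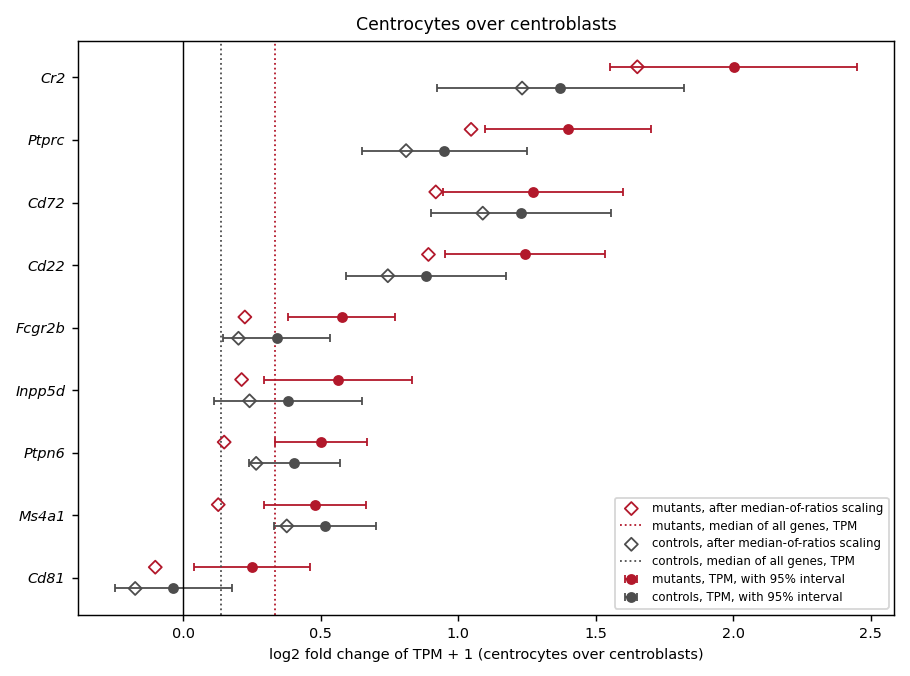
Log2 fold change of TPM + 1, centrocytes over centroblasts, for the 9 genes in mutants (red) and controls (grey), with limma 95% intervals (bars), the values after median-of-ratios scaling (diamonds) and the median of all genes on TPM (dotted lines). Cr2, Ptprc, Cd72 and Cd22 lie at 0.88 or more on TPM and at 0.74 or more after scaling, and Cd81 lies on both sides of 0.

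Markers of other B cell stages moved with this comparison. All 8 genes typical of naive or follicular B cells rose in both genotypes, and their sum was 927 to 1094 TPM in mutant centrocytes and 658 to 1009 in control centrocytes, against 118 to 254 in mutant and 212 to 274 in control centroblasts. None of them was under 1 TPM in all libraries. Of 6 marginal zone genes, a B cell type rich in Cr2, 4 rose in each genotype and 1 fell in controls, and the sum was 404 to 775 TPM in mutant and 296 to 475 in control centrocytes, against 129 to 281 in mutant and 137 to 205 in control centroblasts. Follicular dendritic cells also express Cr2 and Fcgr2b. Their 7 markers summed to 13.0 to 33.9 TPM in mutant and 16.3 to 43.7 in control centrocytes, against 9.61 to 13.6 in mutant and 8.21 to 11.9 in control centroblasts, and Vcam1 alone of 3 tested was called. Of the 7, Cxcl13, C4b and Enpp2 were under 1 TPM in every library. Mfge8 averaged 5.92 to 6.84 TPM over the groups, Clu 0.708 to 1.67 TPM and Madcam1 0.0656 to 1.42 TPM. Vcam1 averaged 14.4 and 18.3 TPM in mutant and control centrocytes, against 2.91 and 3.14 TPM in mutant and control centroblasts. Macrophages express Fcgr2b, Ptpn6, Inpp5d and Ptprc. Of their 11 tested markers 9 rose in mutants and 10 in controls, and the 13 markers found summed to 107 to 280.4 TPM in mutant and 134 to 314 in control centrocytes, against 59.5 to 111 in mutant and 64.3 to 85.0 in control centroblasts. T or NK cell markers were nearly all Lck (146 to 223 TPM over the group means), with Cd4, Cd8a and Cd28 under 1 TPM in every library. Cd3d, Cd3e and Cd3g averaged only 0.0551 to 1.37 TPM over the groups. Cd3g and Lck, the 2 tested, rose in controls. Plasma cell markers were lower in sum in centrocytes (686 to 1207 TPM in mutants and 749 to 974 in controls) than in centroblasts (1504 to 1829.7 in mutants and 1378 to 1759.8 in controls). Igj, the antibody joining chain, made up most of that sum and fell (-1.05 in mutants, adjusted p = 5.04e-06, and -0.90 in controls, adjusted p = 8.48e-05), whereas Prdm1, the transcription factor of plasma cell differentiation, rose (1.81, adjusted p = 0.000275, and 1.20, adjusted p = 0.0153), with 13.2 and 4.64 TPM in mutant and control centrocytes and 2.91 and 1.48 TPM in mutant and control centroblasts. The gate on B220, FAS and GL7 is aimed at germinal centre B cells. How many macrophages, follicular dendritic cells and T or NK cells passed it was not measured. The part of these cells in the zone differences was not tested, and in bulk libraries fewer cells of a type and less RNA per cell cannot be told apart.

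Ratios between the genes within a library do not depend on its scaling. Cr2 over Cd81, the 2 chains of the coreceptor complex measured here, was 0.648 to 0.891 in mutant centrocytes, against 0.133 to 0.316 in mutant centroblasts. In controls it was 0.742 to 1.21 in centrocytes, against 0.237 to 0.617 in centroblasts, so the zones stood apart in both genotypes. Cd22 over Ptpn6, a receptor over the phosphatase it recruits, was 0.671 to 0.950 in mutant centrocytes, against 0.371 to 0.582 in mutant centroblasts, and 0.634 to 0.819 in control centrocytes, against 0.458 to 0.626 in control centroblasts. Cd72 over Ptpn6 likewise stood apart, at 0.741 ± 0.109 in mutant and 0.631 ± 0.134 in control centrocytes, against 0.435 ± 0.0775 in mutant and 0.351 ± 0.0462 in control centroblasts. The activating phosphatase gene Ptprc over the inhibitory Ptpn6 was 0.990 to 1.25 in mutant centrocytes, against 0.475 to 0.738 in mutant centroblasts. In controls these ranges met, with 0.889 to 1.09 in centrocytes, against 0.589 to 0.990 in centroblasts, where library 2 gave the high value. Fcgr2b over Inpp5d, the other receptor and phosphatase pair, overlapped in all 4 groups, with means of 1.59 ± 0.179, 1.66 ± 0.164, 1.59 ± 0.267 and 1.73 ± 0.333 in mutant centrocytes, control centrocytes, mutant centroblasts and control centroblasts. A ratio shows unequal change of its 2 genes and not which of them moved.

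**Figure D3:**
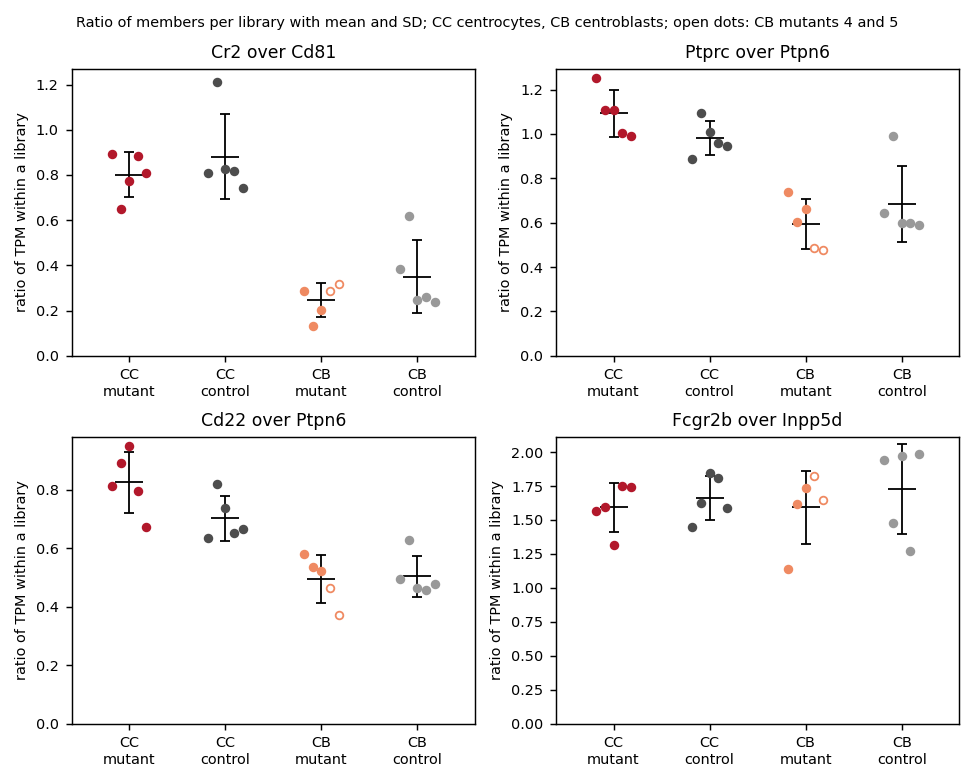
Ratio of TPM of 2 genes within each library (dots) with group mean and SD, for mutant and control centrocytes and mutant and control centroblasts, 5 libraries each, on axes that start at 0. Cr2 over Cd81 is at least 0.648 in every centrocyte library and at most 0.617 in every centroblast library, while Fcgr2b over Inpp5d lies between 1.14 and 1.99 in all 4 groups.

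The comparison of mutants with controls asks what the Myd88 allele changed. In centroblasts 2 of the 9 genes fell in mutants and none rose (3.38% of all genes tested fell and 0.905% rose). They were Cd81 and Cr2, the 2 coreceptor chains, and they were also the 2 genes whose groups did not overlap, both lower in mutants (2.99% of genes tested were). With median-of-ratios scaling neither passed, their groups overlapped, and 2.94% of all genes fell and 2.49% rose. With mutant centroblasts 4 and 5 left out, Cd81 passed and Cr2 did not, and 1.44% of all genes fell. The median of the 9 genes was -0.16, as was that of all genes. An unadjusted p under 0.05 was found for 4 of the 9, beside 3452 of the 11386 genes tested.

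Cd81 averaged 278 ± 49.8 TPM in mutant centroblasts and 373 ± 32.5 TPM in control centroblasts, and the highest mutant library (318 TPM) lay below the lowest control (328 TPM). The difference was -0.44 ± 0.10 (adjusted p = 0.0229), -0.25 after scaling (adjusted p = 0.0749) and -0.28 without mutant centroblasts 4 and 5 (adjusted p = 0.0301). The call was lost without control centroblast 4 (adjusted p = 0.0562) or 5 (0.0668), and in a fit of the centroblast libraries alone (0.214). Cr2 averaged 66.6 ± 19.7 TPM in mutant and 128 ± 52.4 TPM in control centroblasts, and here the highest mutant (90.5 TPM) came close to the lowest control (93.8 TPM). The difference was -0.91 ± 0.22 (adjusted p = 0.0258) and -0.72 after scaling (adjusted p = 0.0633). Without mutant centroblasts 4 and 5 it was -0.99 (adjusted p = 0.0689), without control centroblast 2 it was -0.69 (adjusted p = 0.0719), without mutant centroblast 5 it was -0.89 (adjusted p = 0.0656), and a fit of the centroblast libraries alone gave an adjusted p of 0.175.

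The remaining 7 genes did not pass in centroblasts. Ptprc was -0.32 ± 0.14 (adjusted p = 0.143), with 464 ± 129 TPM in mutants and 567 ± 105 TPM in controls, and it passed only without mutant centroblast 1 (-0.44, adjusted p = 0.0208). It was -0.04 when mutant centroblasts 4 and 5 were left out. Fcgr2b was -0.25 ± 0.09 (adjusted p = 0.0992), with 235 ± 31.4 TPM in mutants and 277 ± 23.9 TPM in controls. Cd22, Ms4a1, Ptpn6 and Inpp5d lay between -0.16 and -0.12, and all 4 lay between 0.03 and 0.06 after scaling. Cd72 was the only positive one, 0.18 ± 0.16 (adjusted p = 0.435) and 0.37 after scaling (adjusted p = 0.0758), with 338 ± 77.8 TPM in mutants and 294 ± 39.6 TPM in controls.

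In centrocytes none of the 9 genes passed (1.20% of all genes tested did), and none had an unadjusted p under 0.05 (1094 of the 11386 genes tested did). With scaling none passed either (1.75%), and 2 had an unadjusted p under 0.05, for which no count over all genes is given. The standard errors use an estimate of the spread shared by all groups, mutant centroblasts 4 and 5 included. Without these 2 libraries none of the 9 passed (2.27% of all genes rose and 1.12% fell). Of the 9, 2 then had an unadjusted p under 0.05, again without a count over all genes. Cd81 again lay lower in mutants, 307 to 345 TPM, against 345 to 392 TPM in controls, without overlap (1.99% of genes tested were lower without overlap), but the difference of -0.15 ± 0.10 did not pass (adjusted p = 0.801), and after scaling the groups overlapped. Cr2 was -0.28 ± 0.22 (adjusted p = 0.88), with 262 ± 40.6 TPM in mutants and 319 ± 68.1 TPM in controls. Ms4a1 was -0.17 ± 0.09 (adjusted p = 0.61). Cd22 and Cd72 were 0.20 ± 0.14 and 0.22 ± 0.16 (adjusted p = 0.819 and 0.836), with 896 ± 105 and 804 ± 98.4 TPM in mutants and 777 ± 80.4 and 701 ± 158 TPM in controls. Fcgr2b, Ptpn6, Inpp5d and Ptprc lay between -0.03 and 0.13. The 95% interval of Ptpn6 (-0.19 to 0.14) was the narrowest of the 9, and that of Cr2 (-0.73 to 0.17) the widest.

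**Figure D4:**
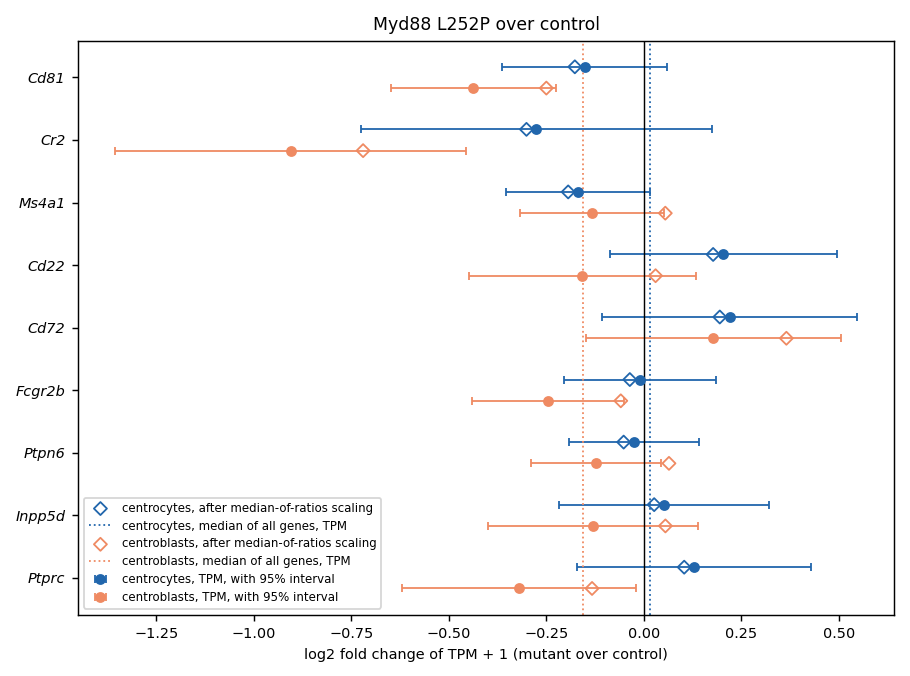
Log2 fold change of TPM + 1, mutant over control, for the 9 genes in centrocytes (blue) and centroblasts (orange), with limma 95% intervals (bars), values after median-of-ratios scaling (diamonds) and the median of all genes on TPM (dotted lines). In centroblasts Cd81 (-0.44) and Cr2 (-0.91) lie lowest and Cd72 (0.18) highest, and scaling moves every centroblast value up.

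The difference between the genotype effects of the zones, centrocytes minus centroblasts, passed for none of the 9 genes (0.0176% of all genes tested passed). It was 0.63 ± 0.31 for Cr2 (adjusted p = 0.403), 0.45 ± 0.20 for Ptprc (unadjusted p = 0.039, adjusted p = 0.403), 0.36 ± 0.20 for Cd22 (adjusted p = 0.403) and 0.29 ± 0.14 for Cd81 (adjusted p = 0.403), against a median of 0.18 over all genes. Ptprc was the only one of the 9 with an unadjusted p under 0.05 (1322 of the 11386 genes tested had one), and after scaling none of the 9 had one. The larger zone differences of Cr2, Ptprc and Cd22 in mutants than in controls were therefore not shown to differ between the genotypes. Erythroid transcripts moved with genotype. Their sum was 232 to 574 TPM in mutant and 40.9 to 271 TPM in control centrocytes, and 323 to 804 TPM in mutant and 22.5 to 269 TPM in control centroblasts, and all 3 tested genes rose in mutant centroblasts. Hba-a1 was listed at 0 in every library, while Beta-s, another globin gene, averaged 129.6 to 537 TPM over the groups, so the 0 is not read as a level. The part of these transcripts in the genotype differences was not tested.

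Most of the called genes around these 9 were also higher in centrocytes. Of 17 other inhibitory receptors tested, 14 rose and 0 fell in mutant centrocytes, and 11 rose and 0 fell in control centrocytes (medians 1.01 and 0.75, against 0.34 and 0.14 over all genes). Of all genes tested, 48.8% rose and 12.6% fell in mutants, and 21.2% rose and 9.48% fell in controls. After scaling 12 and 11 of the 17 rose and 0 fell, where 29.9% and 18.2% of all genes rose and 28.6% and 17.4% fell. Fcrl5, an Fc receptor-like molecule of B cells, was 3.46 in mutants (adjusted p = 1.30e-08) and 2.98 in controls (adjusted p = 3.00e-07). Lilrb3, which in mouse encodes the paired immunoglobulin-like receptor B, was 2.30 (adjusted p = 4.55e-09) and 1.74 (adjusted p = 5.61e-07), and myeloid cells express it too. Pecam1 (1.52) and Ceacam1 (1.75), adhesion molecules with inhibitory motifs, followed in mutants, and Btla (0.88), a receptor for the ligand HVEM, and Cd84 (0.80), a SLAM family receptor, in controls.

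Of 22 phosphatases and adaptors that restrain signalling, 17 rose and 3 fell in mutant centrocytes, and 11 rose and 1 fell in control centrocytes (medians 0.77 and 0.37, beside 48.8% higher and 12.6% lower of all genes in mutants and 21.2% higher and 9.48% lower in controls). After scaling 13 rose and 4 fell in mutants (29.9% and 28.6% of all genes), and 9 rose and 1 fell in controls (18.2% and 17.4%). Ptpn22, a phosphatase of Src family kinases, was 1.93 in mutants (adjusted p = 4.88e-07) and 1.35 in controls (adjusted p = 9.54e-05). Pag1, the membrane anchor of the inhibitory kinase CSK, was 1.65 in mutants (adjusted p = 1.16e-06) and 1.06 in controls (adjusted p = 0.000475), and the adaptor gene Grap was 0.64 and 0.51. Dok3, an adaptor that works with SHIP-1, was the fall in controls (-0.56, adjusted p = 0.000624).

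Of 17 coreceptor partners and tetraspanins, 11 rose and 1 fell in mutant centrocytes and 7 rose and 1 fell in control centrocytes (medians 0.45 and 0.29, beside 48.8% higher and 12.6% lower of all genes in mutants and 21.2% higher and 9.48% lower in controls). After scaling 7 rose and 3 fell in mutants (29.9% and 28.6% of all genes), and 6 rose and 2 fell in controls (18.2% and 17.4%). The tetraspanin Cd82 was 1.02 in mutants (adjusted p = 1.11e-09) and 0.71 in controls (adjusted p = 3.70e-07), and the tetraspanin Tspan32 was 1.45 (adjusted p = 7.55e-09) and 1.22 (adjusted p = 2.65e-07). Both are relatives of Cd81, which was 0.25 and -0.04, and both were picked by adjusted p. Not all tetraspanins of the list rose. Cd151 was 0.22 and 0.01 and did not pass in either genotype, and Tspan13 fell in both (-0.32 and -0.36). Cd38, an ectoenzyme that is also among the naive B cell markers, was 2.11 and 1.54. Of 22 kinases and adaptors of the antigen receptor, 16 rose and 1 fell in mutant centrocytes, and 6 rose and 0 fell in control centrocytes (medians 0.41 and 0.21). The 6 of 22 in controls lay near the 21.2% of all genes that rose there, while 48.8% rose in mutants. After scaling 9 rose and 4 fell in mutants (29.9% and 28.6% of all genes), and 6 rose and 4 fell in controls (18.2% and 17.4%). The scaffold gene Bank1 was 1.29 in mutants (adjusted p = 4.89e-09) and 0.69 in controls (adjusted p = 4.23e-05), and the Src family kinase gene Fgr (1.17 and 0.84), which myeloid cells also express, rose in both genotypes. Without mutant centroblasts 4 and 5 the mutant counts were 13 inhibitory receptors higher, 13 phosphatases and brakes higher and 4 lower, 8 coreceptor partners higher and 1 lower, and 11 kinases and adaptors higher and 2 lower, where 35.8% of all genes rose and 14.9% fell.

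Between genotypes in centroblasts, every called gene of these 4 lists fell in mutants on TPM, where 3.38% of all genes fell and 0.905% rose (2.94% and 2.49% after scaling). In mutant centroblasts 2 of the 17 inhibitory receptors fell, Tnfrsf13b, which encodes the BAFF and APRIL receptor TACI (-0.90 ± 0.20, adjusted p = 0.0176), and Pecam1 (-0.56 ± 0.15, adjusted p = 0.0444). After scaling Tnfrsf13b fell (-0.72), Pecam1 missed the threshold (adjusted p = 0.0501) and Pdcd1, a checkpoint receptor, rose (0.995, adjusted p = 0.0292). Of the 22 phosphatases and adaptor brakes 3 fell, Inpp4b (-1.03 ± 0.19, adjusted p = 0.00518), a lipid phosphatase, Ptprj (-0.90 ± 0.24, adjusted p = 0.0365), a receptor phosphatase that like Ptprc activates Src family kinases in B cells, and the ubiquitin ligase Cblb (-0.56 ± 0.16, adjusted p = 0.049), and the same 3 fell after scaling. At an unadjusted p under 0.05 were 14 of the 22 kinases and adaptors, beside 3452 of the 11386 genes tested. Of the 22, 5 fell, led by Bank1 (-0.66 ± 0.10, adjusted p = 0.00143), the kinase genes Btk (-0.45) and Lyn (-0.42) and the adaptor Dapp1 (-0.50). After scaling Bank1 and Dapp1 fell. Without mutant centroblasts 4 and 5 Inpp4b, Bank1 and Btk were the ones of these that fell (1.44% of all genes did), and Fcrl5 (1.14, adjusted p = 0.018) and Inppl1 (0.66, adjusted p = 0.0291), which encodes the relative SHIP-2 of SHIP-1, rose (2.13% of all genes did). None of the 17 coreceptor partners and tetraspanins passed, with 4 at an unadjusted p under 0.05 (3452 of the 11386 genes tested were). In mutant centrocytes 1 gene of these lists rose (1.20% of all genes passed in either direction), the inhibitory receptor Lilrb4 (1.32 ± 0.31, adjusted p = 0.0344), which myeloid cells also express, and after scaling Fcrl5 (1.06) and Ptpn22 (0.73) rose as well (1.75%). Without mutant centroblasts 4 and 5, in a fit whose estimate of the spread changed for all groups, Lilrb4, Fcrl5 (1.09), Ptpn22 (0.76) and Cd38 (0.61) rose in mutant centrocytes, and Cd79b (-0.32), a signalling chain of the antigen receptor, and the tetraspanin Tspan13 (-0.19) fell (2.27% of all genes rose and 1.12% fell).

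Over the 20 libraries the patterns of the 9 genes were compared by the root mean square difference between log2(TPM + 1) values, each centred on the gene's own mean. The closest pair was Fcgr2b and Ptpn6 (0.11), next Cd22 and Ptprc (0.14), and the farthest Cd81 and Cr2 (0.89). Among 8423 candidate genes the nearest to Cr2 was Ccbp2, which encodes an atypical chemokine receptor (difference 0.29, against a median of 0.88 over the candidates). It averaged 41.4 and 40.8 TPM in mutant and control centrocytes and 7.86 and 17.3 TPM in mutant and control centroblasts. Nearest to Ptprc was Smarca2 (0.11), a chromatin remodelling ATPase, to Cd22 Pdcd11 (0.12), a ribosome biogenesis factor, and to Cd72 H2-K2 (0.16). Nearest to Cd81 was Rcsd1 (0.08), to Ms4a1 Lamp2 (0.11), to Fcgr2b Hsh2d (0.11), to Ptpn6 Pigs (0.09) and to Inpp5d Tcof1 (0.08). These are descriptions of 20 libraries that share composition and zone differences, and they carry no test.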

How the data were processed

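RNA of sorted mouse germinal centre B cells was sequenced from stranded mRNA libraries, per the labels' protocols. The authors deposited TPM, in 1 table per library keyed by gene symbol. STAR and the build mm10 are named in the submitters' processing notes, and the annotation, the quantification tool and all versions are not given in the sources used. TPM keep no read depth, so the depth is unknown and no counting interval is given. Groups came from titles, sort and genotype labels. Genes that reached 1 TPM in 5 or more of the 20 libraries (11386) were fitted as log2(TPM + 1) with limma 3.58.1 in R 4.3.3 (4 group means, 16 residual degrees of freedom, eBayes with trend and robust, two-sided). P-values were adjusted by Benjamini-Hochberg over all genes tested, and the threshold was 0.05. The fit was tested on simulated data. Positions are from GENCODE M21 and promoters from the RefSeq table for GRCm38.p6, in which 8 of the 9 genes had an entry.

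The 9 genes, the gene lists and the tests were chosen with earlier results of these data known. Named in the text were the 9 genes, the genes of genotype and gates, of each pathway list and comparison at most 4 called members in order of adjusted p, and the gene nearest to each of the 9 in pattern (among tested genes averaging 5 TPM or more, without receptor gene segments, numbered gene models, small RNAs, Y-linked genes and Xist). Genes named after scaling or without mutant centroblasts 4 and 5 were those called by that fit and were chosen after their values were seen. Between the zones, Cd151 and Tspan13 were named outside this rule, as tetraspanins that did not rise. Some genes that met the rule are not reported here, and list counts include them. Alternatives were a pseudocount of 0.1, no filter, at least 5 TPM, median-of-ratios scaling, eBayes without trend and robust, only the libraries compared, leaving out mutant centroblasts 4 and 5 or each library, and a replicate block.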

Additional observations from a re-analysis of the deposited data

Results flagged for a closer look

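In 36 sets of 5 libraries (each of the 9 genes in each group), 4 had a highest library far from the others by Dixon's test at the 95% level, and chance flags about 1 in 20. Cr2 stood out in control centrocyte 2 with 440.5 TPM and in control centroblast 2 with 219 TPM. Ptprc stood out in control centroblast 2 as well, with 750.1 TPM. Fcgr2b stood out in mutant centrocyte 4 with 379 TPM. Without control centroblast 2 the difference of Cr2 between mutant and control centroblasts was -0.69 on the log2 scale and no longer passed (adjusted p = 0.0719).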

How the results depend on the processing

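The fold changes of the 9 genes in the 5 comparisons kept direction and call in 326 of 351 values from alternatives that kept all libraries or left out 2, and in 867 of 900 with 1 library left out. Of the 9 genes, 0 were called between genotypes in centroblasts with median-of-ratios scaling or with the centroblast libraries alone, and 1 without mutant centroblasts 4 and 5. Between zones in mutants 5 were called with that scaling. Scaling turned the sign in mutant over control centroblasts of Ms4a1 (0.055), Cd22 (0.030), Ptpn6 (0.065) and Inpp5d (0.055), in the difference of genotype effects of Cd72 (-0.17), Ptpn6 (-0.12) and Inpp5d (-0.029), and in mutant zones of Cd81 (-0.10). Without mutant centroblasts 4 and 5 it turned in centroblasts for Cd22 (0.10) and Inpp5d (0.059) and in the difference for Cd72 (-0.18) and Inpp5d (-0.0068). Scaling removes the shift of all genes by construction, and the cause of that shift was not tested.

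Over all genes, 137 were called between genotypes in centrocytes, 83 with a pseudocount of 0.1, 84 with at least 5 TPM, 301 with the centrocyte libraries alone and 385 without mutant centroblasts 4 and 5. In centroblasts 488 were called, 270 with no filter and 24 with the centroblast libraries alone. The difference had 2, 0 with scaling or without trend and robust, and 4 without mutant centroblasts 4 and 5, which also gave 5418 between control zones, against 3498. With each library left out these counts ran 46 to 237, 147 to 3102, 0 to 7 and 2637 to 4726, and 6297 to 7346 between mutant zones. Of the 9 genes, 1 to 3 were then called between genotypes in centroblasts, 8 to 9 between mutant zones and 7 to 8 between control zones. Values whose sign turned ran from -0.26 to 0.0076 (Cd22, genotype in centroblasts), -0.065 to 0.038 (Fcgr2b), -0.0034 to 0.089 (Inpp5d) and -0.058 to 0.00030 (Ptpn6, all genotype in centrocytes), -0.095 to 0.14 (Cd72) and -0.078 to 0.041 (Ms4a1, both in the difference) and -0.080 to 0.0022 (Cd81, control zones).

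Replicate numbers were not taken as pairs. Deviations from the group means of same-numbered centrocyte and centroblast libraries correlated over 0.1 in 4 of 5 pairs in mutants (-2.93e-05 to 0.269) and 4 of 5 in controls (-0.0168 to 0.259), and in 3 of 5 and 1 of 5 between genotypes in centrocytes and centroblasts. With the replicate block 793 genes were called between genotypes in centroblasts, 242 in centrocytes and 14 for the difference.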
